A study of Sus scrofa domesticus with 6 samples.

Results

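Alveolar type 1 (AT1) cells are described here as they appear in the CD45- library of reperfused pig lung grafts. They were picked by a rule on their own counts: at least 500 UMIs (unique molecular identifiers, the tags that let each captured transcript be counted once), at least 2 UMIs of AGER and RTKN2 together, SFTPC under 5% of UMIs, SCGB1A1 under 1% of UMIs and no UMI of PTPRC, the gene of CD45. The rule found 234 cells among the 15053 cells of the library with at least 500 UMIs, a share of 1.55% (95% exact Clopper-Pearson interval 1.36 to 1.77), out of 15817 barcodes in that library and 43322 in the series. They are called rule cells below. They were set against the other 10477 epithelial cells of the same library, which fell into 4 classes: 7143 AT2 cells (SFTPC at 5% or more of UMIs), 789 secretory cells (SCGB1A1 at 1% or more), 1019 ciliated cells (at least 3 UMIs of ciliated-cell markers) and 1526 remaining epithelial cells (at least 3 UMIs of pan-epithelial markers). The last limit is loose, and this class may hold cells that are not epithelial. EPCAM, a pan-epithelial marker, was found in 47.8% of the library's cells with endothelial markers.

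The study used orthotopic single-lung transplantation in domestic pigs, with 24 hours of cold storage of the graft and 8 hours of reperfusion (ischemia-reperfusion injury, IRI). Graft cells were sorted by flow cytometry into CD45- cells (IRI CD45-, 1 library) and CD45+ cells (IRI CD45+, 2 libraries), and the controls (3 libraries) were unsorted suspensions of the donors' right lungs, taken without transplantation. All lungs were perfused, digested with a lung dissociation kit, strained and freed of red cells. With sorting done on grafts and not on controls, a difference due to the sort and one due to injury cannot be told apart. Because 1 library holds the rule cells, no test over samples was possible; cells of 1 library are not replicates, and all intervals below cover counting error only.

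AT1 cells are the thin, flat cells that cover most of the gas-exchange surface. They share a fused basement membrane with the capillary endothelium, carry water and ions across the alveolar wall, and are replaced after injury by AT2 cells, the cuboidal makers of surfactant. AGER, the receptor for advanced glycation end products (RAGE), lies on their basal surface and is released into plasma and airway fluid when they are injured. RTKN2, rhotekin 2, is used as a second marker of these cells.

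The IRI CD45- library held 40647380 UMIs, and the other libraries held between 19098567 and 33549585. Rule cells were shallow, with a median of 1231.5 UMIs (range 507 to 10298) and 590.5 genes. The median was 2174 UMIs in the other epithelial cells, 2246.5 in leukocytes (cells with a PTPRC UMI) and 1530.5 in endothelial cells of the library. Levels are given as CPM, the UMIs of a gene over all UMIs of a set of cells, scaled to the total usual for this unit, and a ratio is the CPM of the rule cells over that of the other epithelial cells, with a 95% exact interval in parentheses. A gene is called higher or lower where this ratio passes 2-fold, among genes with a mean of at least 10 CPM over both sets.

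The rule genes were spread unevenly over the 234 cells. AGER and RTKN2 were both detected in 73 rule cells, AGER alone in 98 and RTKN2 alone in 63. The summed count was 2 in 121 cells, 3 in 56, 4 in 28 and at least 5 in 29, with a maximum of 18. The lower limit thus held 121 of the 234 cells. Just outside it, 336 cells met every other condition with 1 UMI of AGER or RTKN2, and 4633 with none. At the SFTPC limit, 23 rule cells had 4 to 5% SFTPC, against 23 cells just outside with 5 to 6%. In the first 100 UMIs above the depth limit lay 15 rule cells, against 12 otherwise matching barcodes in the 100 UMIs below it. The SFTPC limit took away the most cells, 600 of 871, and SCGB1A1 and PTPRC took away 27 and 10.

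AGER, located on chromosome 7 at 24218116 to 24221162 (Sscrofa11.1, RefSeq annotation), reached 779 CPM in rule cells, against 73.2 in the other epithelial cells. RTKN2, on chromosome 14 at 65686718 to 65861385, reached 573 CPM in rule cells, against 27.7. These values chose the cells and are given only as a description. Both genes also gave UMIs elsewhere: AGER was found in 73.1% of rule cells, 15.5% of the other epithelial cells and 6.59% of leukocytes, and RTKN2 in 58.1%, 5.75% and 2.62%. At least 2 UMIs of the pair, the rule's own threshold, were present in 34 of 1488 leukocytes (2.28%, 1.59 to 3.18). Among cells that met all other conditions the share was 234 of 5203 (4.497%, 3.95 to 5.10), at a median of 1376 UMIs. Leukocytes, although deeper, thus passed the threshold less often than these cells, but not rarely.

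The label was checked against 30 AT1 markers not used by the rule. Of these, 27 were measured, 22 passed the filter on low levels, 15 were higher and 1 was lower in rule cells; over all 7713 genes tested 13.4% were higher and 2.44% lower. The median ratio of the 22 markers was 3.10, against 1.18 for all tested genes. Of all called genes 84.6% were higher, and 73.5% when levels were scaled without the 6 genes over 1% of UMIs in any set, which moved the median log2 ratio of all genes to 0.11, against 0.24. COL4A3, COL4A4, CAV2, ARHGEF26 and SEMA3E lay under 10 CPM in the other epithelial cells and passed the filter only through their level in rule cells, so their ratio had to exceed 1. Without them 10 of 17 were higher, against 8.49% of the 7008 tested genes with at least 10 CPM in the other epithelial cells. All 15 were also called when the counting interval had to exclude 1, as were 12.5% of all genes. SUSD2 was not called lower with the interval, and 1.74% of all genes were. The rule cells were chosen on genes of the same cells, and no test is attached to these counts.

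**Figure D1:**
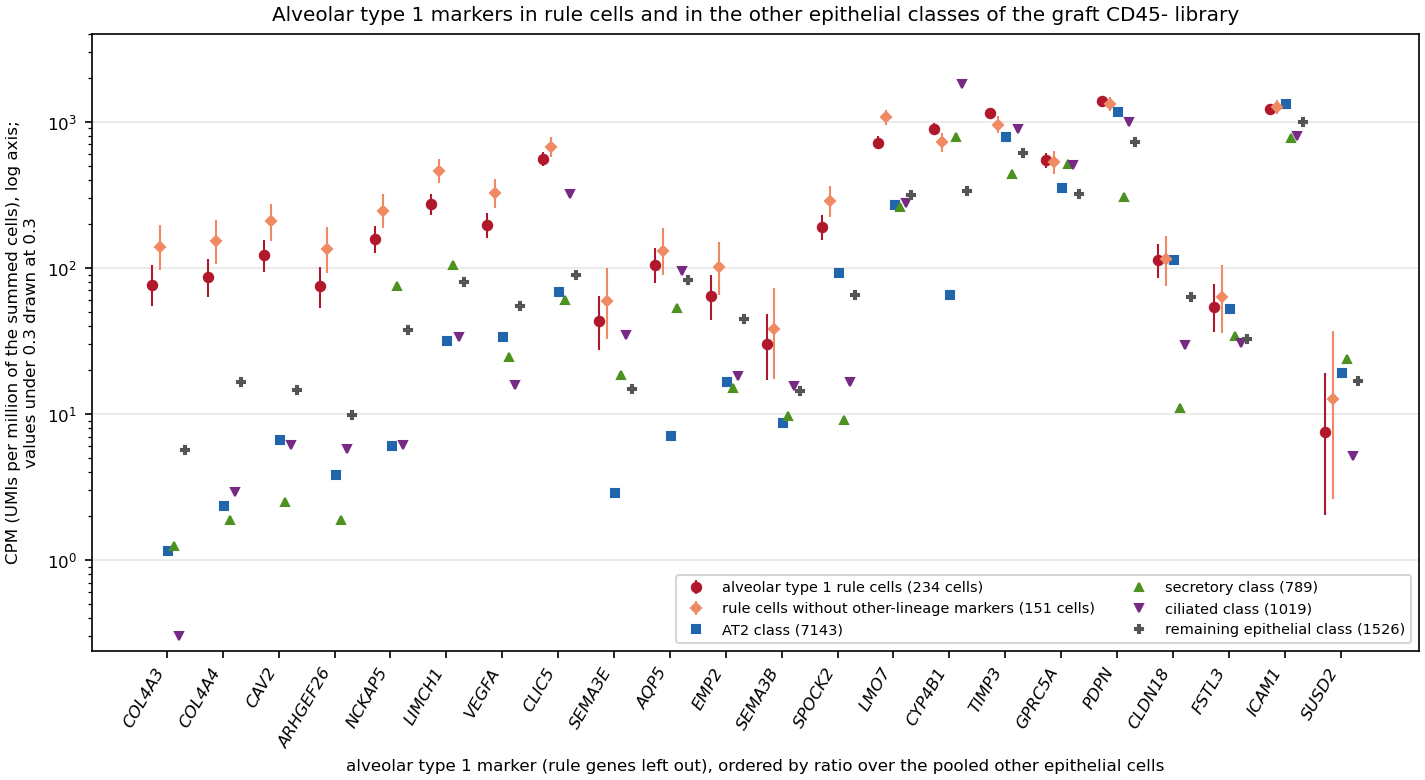
CPM (log axis) of the 22 AT1 markers that passed the filter, rule genes left out, ordered by ratio. Circles are all 234 rule cells and diamonds the 151 rule cells without markers of another lineage, with 95% exact Poisson intervals; the other symbols are the 4 other epithelial classes. COL4A3 stands at 76.8 CPM in rule cells and at 5.70 CPM or less in each other class, while PDPN, CLDN18 and ICAM1 lie close to the AT2 class.

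The 2 type IV collagen chains of the alveolar basement membrane had the highest ratios of the 22 AT1 markers tested, both among the 5 that passed the filter only through the rule cells. COL4A3, the alpha 3 chain (chromosome 15, 128611640 to 128763331), had 41 UMIs and 76.8 CPM in rule cells, against 1.53 CPM in the other epithelial cells, a ratio of 50.2 (32.1 to 78.4). COL4A4, the alpha 4 chain (chromosome 15, 128472228 to 128612302), had 46 UMIs and 86.1 CPM, against 3.88 CPM, a ratio of 22.2 (15.4 to 31.6). The gene spans touch at one end, so reads in the shared stretch could be assigned to either. Among the other classes the remaining epithelial cells came nearest, with 5.70 CPM of COL4A3 and 16.5 CPM of COL4A4, and both genes lay under 4 CPM in AT2, secretory, ciliated, leukocyte and endothelial cells.

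Cell by cell, the pair was sparse. At least 1 UMI of COL4A3 or COL4A4 was present in 41 of 234 rule cells (17.5%, 12.9 to 23.0) and in 105 of the 10477 other epithelial cells (1.00%, 0.820 to 1.21). Leukocytes, which should lack both chains, had 14 of 1488 (0.941%), although they were deeper than the rule cells. The chains were detected together in 12 rule cells and in 8 other epithelial cells. Most rule cells, at this depth, gave no UMI of either chain. With every cell thinned to 500 UMIs, COL4A3 was found in 6.41% of rule cells and 0.134% of the other epithelial cells.

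Markers of the thin membrane followed. CAV2, caveolin 2, had 122 CPM in rule cells, against 7.003 in the other epithelial cells, a ratio of 17.4 (12.9 to 23.1), while endothelial cells reached 194 CPM. Its partner CAV1 had 8 UMIs in rule cells (14.98 CPM) against 0.714 CPM, too low for the filter. CLIC5, a chloride intracellular channel protein linked to the cortical cytoskeleton, had 556 CPM against 96.1, a ratio of 5.78 (5.12 to 6.52), with 319 CPM in the ciliated class. These 2 genes were therefore shared with endothelial and ciliated cells of the library, more than the collagen chains were. AQP5, the apical water channel of AT1 cells, had 105 CPM in rule cells against 29.4, and 7.01 CPM in AT2 but 95.0 in ciliated cells. EMP2, an epithelial membrane protein, had 63.7 CPM against 19.6.

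Secreted and cytoskeletal AT1 markers were also higher. VEGFA, the growth factor by which AT1 cells signal to capillaries, had 197 CPM in rule cells against 33.1 (5.94, 4.81 to 7.27). SEMA3E, a guidance cue, had 43.1 CPM against 9.21, and SEMA3B 30.0 against 10.1. LIMCH1, which binds non-muscle myosin, had 273 CPM against 45.0 (6.07, 5.08 to 7.21), and LMO7, an adherens-junction scaffold, 717 against 275. ARHGEF26, a guanine nucleotide exchange factor, had 74.9 CPM against 4.45 (16.8, 11.5 to 24.1). NCKAP5 and SPOCK2, a matrix proteoglycan, stood at 157 and 189 CPM, against 16.9 and 72.2. NCKAP5 was found in 17.9% of rule cells and 16.9% of secretory cells, or in 10.7% and 3.04% when thinned. CYP4B1, a fatty acid hydroxylase, was higher at 893 CPM against 356, but the ciliated class alone reached 1804.

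Several classical AT1 markers did not separate the cells. PDPN, podoplanin, had 1389 CPM in rule cells against 1013 in the other epithelial cells, a ratio of 1.37 (1.27 to 1.47), with 1174 CPM in the AT2 class. It was detected in 63.2% of rule cells, 65.4% of other epithelial cells and 25.7% of leukocytes. CLDN18, the alveolar claudin, had 112 CPM against 87.7 and ICAM1, an adhesion molecule for leukocytes, 1221 against 1178. Neither passed 2-fold, and AT2 cells had 113 CPM of CLDN18 and 1332 CPM of ICAM1. TIMP3, an inhibitor of matrix proteases, GPRC5A, a retinoic-acid-induced receptor, and FSTL3, a binding protein for activins, had ratios of 1.54, 1.43 and 1.18. SUSD2, a membrane protein, was the 1 marker called lower, at 7.49 CPM against 17.9, with an interval of its ratio that includes 1 (0.114 to 1.08). AKAP5 and KHDRBS2 had no UMI in rule cells, and IGFBP2 and SCNN1G were too low for the filter. HOPX, MYRF and GGTLC1 were not analysed here.

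Counted per cell, rule cells held a median of 6 different AT1 markers, the other epithelial cells 4 and leukocytes 1. Per 1000 UMIs the medians were 9.11 UMIs of AT1 markers in rule cells, 3.92 in the other epithelial cells and 0.914 in leukocytes. Among the classes the ciliated cells came nearest at 5.40, and AT2, secretory and remaining epithelial cells had 3.90, 3.29 and 3.52. As a set, then, the cells carried the AT1 programme that their label names, at a level that varied among them.

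The summed AT1 markers were higher at each step in UMIs of the rule genes. UMIs of AT1 markers per 1000 UMIs had medians of 3.13 in cells with no UMI of AGER or RTKN2, 5.01 with 1, 7.12 with 2, 9.48 with 3 or 4, and 14.4 with 5 or more. COL4A3 lay at 2.57, 7.06, 52.8, 48.6 and 348 CPM over these same 5 steps, and COL4A4 at 8.02, 20.01, 69.3, 43.2 and 370. Both chains were thus much higher from 2 UMIs on than below, did not increase between 2 and 3 or 4, and were highest in the last step, which rests on 29 cells and 45948 UMIs. CLIC5 lay at 142, 232, 469, 475 and 1458 CPM, and VEGFA at 45.4, 73.0, 129, 227 and 522. AQP5 was nearly flat from 57.5 to 81.0 CPM over the first 4 steps and stood at 370 CPM in the last. CAV2 had 57.5 CPM in cells without a rule-gene UMI, which include the endothelial cells, and 28.2, 79.2, 113 and 435 CPM in the others. Median depth was 1368, 1697.5, 1248, 1230 and 1057 UMIs, so the cells with the most UMIs of the rule genes were the shallowest of the 5 steps.

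**Figure D2:**
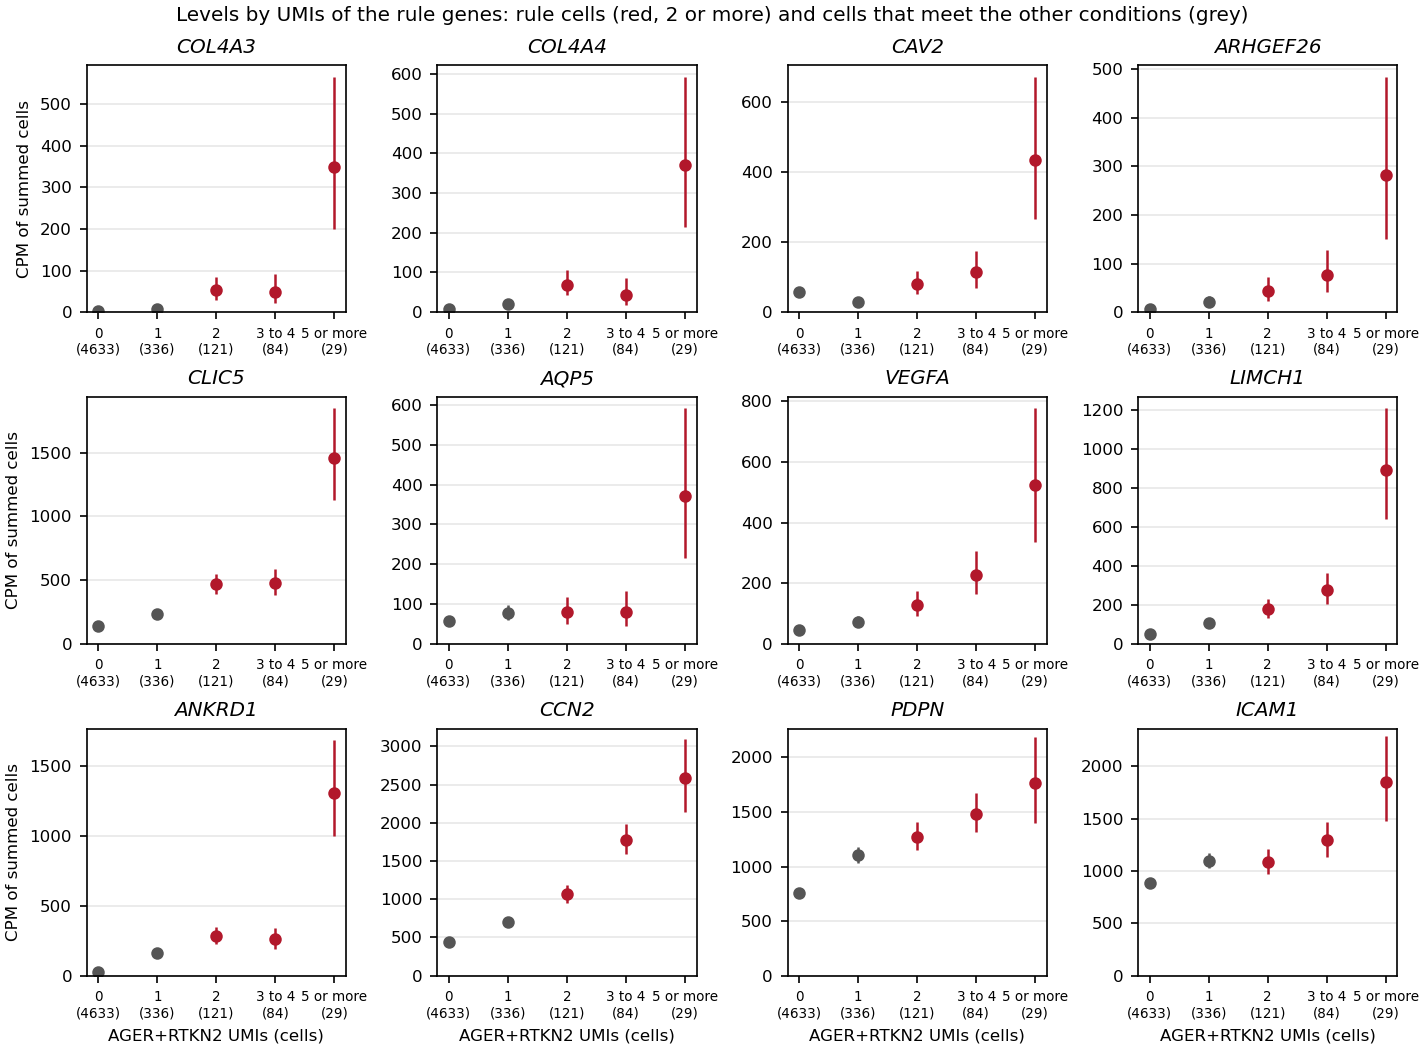
CPM of 12 genes in cells that meet the other conditions, by their UMIs of AGER and RTKN2 (horizontal axis, number of cells in parentheses). Red points are rule cells (2 or more), grey points the cells just outside, bars 95% exact Poisson intervals. COL4A3, COL4A4, AQP5, CAV2 and ANKRD1 are several times higher at 5 or more UMIs than at 3 to 4, whereas PDPN and ICAM1 differ less between the steps.

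The cells with 2 or more UMIs of the rule genes and SFTPC at 5% or more, which the rule left out, did not share this profile. They numbered 572 with no other exclusion applying, at a median of 3761 UMIs. COL4A3 or COL4A4 was found in 8 of them (1.40%, 0.606 to 2.74), and their median of AT1 markers was 4.55 per 1000 UMIs. CAV2 and CLIC5 had 11.8 and 103 CPM there. Within the rule cells, the 112 with SFTPC under 1% of UMIs had the chains in 25.9% (18.1 to 35.03), and the 122 with 1 to 5% in 9.84% (5.19 to 16.6).

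Markers of other lineages split the rule cells. At least 3 UMIs of ciliated-cell markers were found in 51 rule cells, of endothelial or stromal markers in 24 and of leukocyte markers other than PTPRC in 21. The 51 cells with ciliated markers were deep, with a median of 4329 UMIs and 224660 UMIs in all, so they weigh heavily in the summed values of the 534041 UMIs. They had 1896 CPM of TPPP3 and 320.5 CPM of FOXJ1, the master regulator of motile cilia, against 1745 and 468 CPM in the ciliated class. Both genes are among the markers that chose the 51 cells and the ciliated class, so these levels are only a description. COL4A3, CAV2 and VEGFA levels in the 51 cells were 26.7, 35.6 and 97.9 CPM. Of all cells with ciliated markers that met the other conditions, 51 of 1154 (4.42%, 3.31 to 5.77) passed the AGER and RTKN2 threshold. These cells had AT1 markers at a median of 7.88 per 1000 UMIs, against 5.40 in the ciliated class. Of 22 markers 11 were higher and 1 lower in them than in the other epithelial cells, where 21.6% of genes were higher and 7.23% lower. Markers under 10 CPM in the other epithelial cells passed the filter only with a ratio above 1 here too.

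Without all cells that carried such markers, 151 rule cells were left, at a median of 939 UMIs and 236066 UMIs in all. In them 15 of 22 AT1 markers were higher and none lower, with a median ratio of 4.23, where 18% of 7534 tested genes were higher and 9.17% lower and the median over those genes was 1.11. All 15 were called with the interval as well, where 13.6% of genes were higher and 4.3% lower. As in all 234 cells, AT1 markers under 10 CPM in the other epithelial cells passed the filter only through rule cells, so their ratio had to exceed 1. Counts without them are not given for this or the other sets within the 234. COL4A3 and COL4A4 had 139.8 and 152 CPM, against 1.53 and 3.88 in the other epithelial cells, and at least 1 chain was found in 33 of the 151 cells (21.9%, 15.5 to 29.3). CAV2, CLIC5, VEGFA and LIMCH1 had 208, 674, 326 and 462 CPM, each more than in all 234 cells together. These cells were chosen for few UMIs of the other lineages, so low levels of those markers were fixed by the choice. Of the markers tested in them, 3 of 3 stromal, 2 of 4 endothelial, 1 of 2 lymphatic and 1 of 1 mesothelial markers were still higher than in the other epithelial cells, with median ratios of 3.05, 2.61, 3.60 and 47.9. With the interval these counts were 0, 1, 1 and 1. Markers under 10 CPM in the other epithelial cells passed the filter only through rule cells, so their ratio had to exceed 1. Among all 234 rule cells this held for 4 of 5 stromal and 3 of 4 endothelial markers tested. The 4 measured mesothelial markers summed to 0.850 CPM in the other epithelial cells. Of 10 ciliated and 7 leukocyte markers none were higher, and 9 and 4 were lower.

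Of the sets compared, AT1 markers had their highest median ratio, 13.6, in the 50 of these 151 cells that held both rule genes, at 51159 UMIs in all, so that 1 UMI stands for 19.5 CPM. They had 410.5 CPM of COL4A3, 449.6 of COL4A4, 567 of CAV2, 1309.6 of CLIC5 and 841 of VEGFA. One of the collagen chains was found in 19 of the 50 (38%, 24.7 to 52.8), against 14 of the 101 cells with a single rule gene (13.9%, 7.79 to 22.2). In these 50 cells 18 of 22 AT1 markers were higher and none lower, where 41% of 8046 genes were higher and 23.2% lower by fold alone. With the interval 17 were higher, where 16.1% of genes were higher and 5.53% lower. In the 101 cells with a single rule gene 13 of 22 were higher and none lower, where 17.5% of genes were higher and 9.98% lower. The 18, 17 and 13 include markers under 10 CPM in the other epithelial cells, whose ratio had to exceed 1. Other markers were higher by fold in the 50 cells too, 3 of 3 endothelial, 4 of 4 stromal and 1 of 1 mesothelial. Their median ratios were 9.35, 6.34 and 132.7, and with the interval 1 of each was higher. Those under 10 CPM in the other epithelial cells passed the filter only through the 50 cells, which fixed their direction. Of 9 pan-epithelial markers none were higher and 3 were lower (median 0.644). Keratin 8 and keratin 18, KRT8 and KRT18, stood lower in the 50 cells, at 469 and 117 CPM, against 1632 and 686 CPM in the other epithelial cells. In all 234 rule cells the same genes had 1588 and 799.6 CPM.

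**Figure D3:**
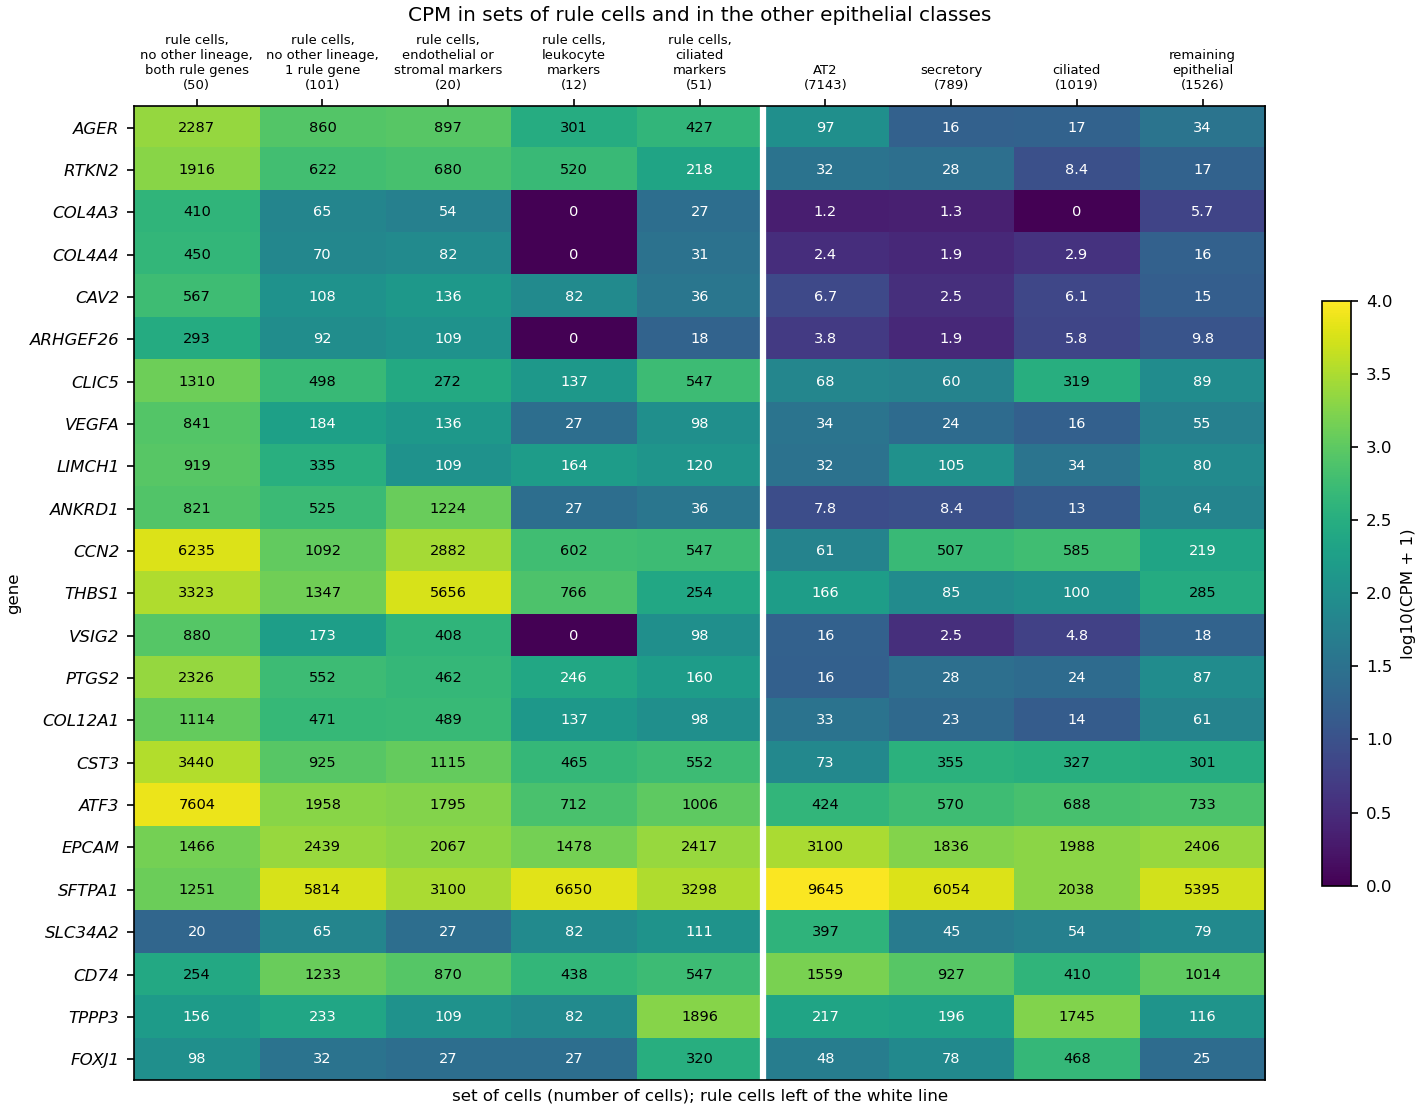
CPM of 23 genes (numbers in the boxes, colour on a log10 scale) in 5 exclusive sets of rule cells, left of the white line, and in the 4 other epithelial classes, right of it; the number of cells stands under each name. COL4A3 and COL4A4 reach 410.5 and 449.6 CPM in rule cells with both rule genes and no other lineage, and 0 CPM in the 12 rule cells with leukocyte markers. TPPP3 is high in rule cells with ciliated markers and in the ciliated class, and is among the markers that chose both.

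Over the whole marker lists, rule cells had 1949 CPM of 14 measured ciliated markers, against 909 in the other epithelial cells. Stromal markers summed to 446 CPM against 39.5, endothelial markers to 137 against 37.8, leukocyte markers to 873 against 460 and AT2 markers, SFTPC included, to 24302 against 102130. The 20 rule cells with endothelial or stromal markers and no ciliated ones carried 1686 CPM of COL3A1 and 1115 CPM of DCN, which fibroblasts make. Both genes are among the markers that chose these 20 cells. Mesothelial markers summed to 16.9 CPM against 0.850. Lymphatic endothelial markers summed to 97.4 CPM against 23.7. VWF, LYVE1 and RGS5, which mark endothelial cells, lymphatic endothelium and pericytes, had no UMI in rule cells. RGS5 had none in the 640 endothelial cells either. Other markers of these lineages did give UMIs, with ESAM, PECAM1, CCL21 and PDGFRB found in 14, 10, 11 and 7 rule cells. Pan-epithelial markers summed to 10327 CPM against 9418, and at least 3 of their UMIs were present in 187 of the 234 cells. They also summed to 6085 CPM in endothelial cells and 3238 CPM in leukocytes, so 3 UMIs do not by themselves mark an epithelial cell. The part of these markers, and of the depth that goes with them, in the results was not tested, other than by the values without these cells.

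Beyond the AT1 markers, ANKRD1 and PTGS2 had the highest ratios among genes with at least 100 CPM. ANKRD1, ankyrin repeat domain 1, a target of the mechanosensitive YAP and TEAD factors, had 361 CPM in rule cells against 14.3 in the other epithelial cells, a ratio of 25.2 (21.1 to 29.9). It was detected in 18.4% of rule cells, 1.57% of other epithelial cells and 1.34% of leukocytes. PTGS2, cyclooxygenase 2, had 529.9 CPM against 25.8 (20.6, 17.9 to 23.6), in 26.9% of rule cells, 3.52% of other epithelial cells and 8.60% of leukocytes. Both were thus found in a minority of the rule cells, and thinned to 500 UMIs the shares of ANKRD1 were 13.7% in rule cells and 0.754% in the other epithelial cells.

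The other leading genes fell into a few kinds. Matrix proteins were SPP1, osteopontin, at 333 CPM against 24.2, COL12A1, at 354 against 32.7, COL4A1, the widespread type IV collagen chain, at 127 against 11.9, THBS1, thrombospondin 1, at 1333 against 163, and CCN2, connective tissue growth factor, at 1446 against 182. AREG, amphiregulin, a ligand of the EGF receptor, had 206 CPM against 24.8. Actin-linked or scaffold genes were CALD1, caldesmon, at 144 against 21.8, and PALM2AKAP2, at 144 against 10.9. CST3, cystatin C, had 991 CPM against 155, and CRYAB, a small heat shock chaperone, 610.4 against 99.4. VSIG2, an immunoglobulin-domain membrane protein, had 213 CPM against 13.9 (15.4, 12.4 to 19.0). Together with CAV2 and NCKAP5 above, these are the 15 highest ratios among genes with a symbol, at least 100 CPM and detection in at least 10% of rule cells. AGER and RTKN2 were left out of the ranking, as were genes listed only by an Ensembl identifier.

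Against the highest of the 4 other epithelial classes rather than their pool, COL4A3, under 100 CPM, stood at 13.5-fold. AGER and RTKN2 left out, VSIG2 led at 11.8-fold among genes with a symbol, at least 100 CPM and detection in 10% of rule cells. It was followed by CAV2 at 8.35, PALM2AKAP2 at 8.13, PTGS2 at 6.13, COL12A1 at 5.85, ANKRD1 at 5.67, COL4A1 at 5.09, THBS1 at 4.68, CALD1 at 3.99 and UTRN, utrophin, at 3.89. Several of these were also found outside the epithelium: endothelial cells had 469.6 CPM of PALM2AKAP2, 375 of COL4A1 and 254 of PTGS2. VSIG2, by contrast, had 9.16 CPM in endothelial cells and 5.39 in leukocytes. For all 10 genes the highest other class was the remaining epithelial cells, with 63.7 CPM of ANKRD1 and 285 of THBS1.

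Rule cells with markers of other lineages were not the only carriers of these genes. In the 151 rule cells without other lineages ANKRD1 had 589 CPM, PTGS2 936, VSIG2 326, SPP1 627, COL12A1 610.0, CCN2 2207 and CST3 1469.9, each above its level in all 234. In the 50 of them with both rule genes PTGS2 reached 2326 CPM and CCN2 6235. Among the 5 exclusive sets THBS1 and ANKRD1 were highest in the 20 rule cells with endothelial or stromal markers, at 5656 and 1224 CPM, and THBS1 had 3323 CPM in the 50 cells. ANKRD1 also varied with depth: the 89 rule cells under 1000 UMIs had 1370.2 CPM, and barcodes under 500 UMIs, which belong to no set, had 203 CPM.

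Grouped by function, the lists with the largest median ratios were those of signals and of the basement membrane. All counts of lists below stand against the 13.4% of genes higher and 2.44% lower among all tested, and the median ratio of 1.18. Of 13 growth factors and guidance cues tested, 10 were higher and none lower, with a median ratio of 2.92. Besides VEGFA and AREG they included TGFB2, transforming growth factor beta 2, at 31.8 CPM in rule cells against 1.36 in the other epithelial cells (23.4, 12.4 to 42.2), detected in 4.70% and 0.334% of cells. TGFB2, SEMA3E and 2 other genes of the list lay under 10 CPM in the other epithelial cells and passed the filter only through rule cells; without these 4, 6 of 9 were higher, against 8.49% of all genes counted so. In the 151 cells without other lineages 11 of 13 were higher, against 18% of all genes there, with genes under 10 CPM in the other epithelial cells counted in both.

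Of 14 basement membrane genes, 10 were higher and none lower, median ratio 2.46, and 7 of 11 were higher without COL4A3, COL4A4 and 1 other gene under 10 CPM in the other epithelial cells. AGRN, agrin, a heparan sulfate proteoglycan, had 88.0 CPM in rule cells against 12.2 (7.19, 5.19 to 9.76), beside the collagen chains. In the 151 cells 12 of 16 were higher, with genes under 10 CPM in the other epithelial cells counted. Of 17 integrin and focal adhesion genes, 8 were higher and none lower, median ratio 1.94, and 6 of 14 were higher without the 3 under that level, ITGA3 among them. ITGA3, the integrin chain that binds laminin, had 26.2 CPM against 8.40, TNS1 and TNS3, tensins that tie integrins to actin, 71.2 and 48.7 against 23.4 and 18.2, and FLNA, filamin A, 99.2 against 33.4.

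YAP and TEAD targets were higher in 6 of 13 and lower in none, median ratio 1.81. Without TGFB2, which passed the filter only through rule cells, 5 of 12 were higher, against 8.49% of all genes counted so. CCN1, a matricellular protein, had 2320.1 CPM in rule cells against 860.4, in addition to CCN2, ANKRD1 and TGFB2. Among 18 AP-1 and immediate-early genes 5 were higher and none lower (median 1.58). ATF3, a stress-induced transcription factor, had 2002 CPM against 501 (3.99, 3.75 to 4.25), DUSP1, a phosphatase of MAP kinases, 2882 against 1055, FOS 9424 against 4143 and FOSL2 56.2 against 21.8. In the 50 cells with both rule genes and no other lineage these were higher still, with ATF3 at 7604, DUSP1 at 7799 and FOS at 24199 CPM.

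**Figure D4:**
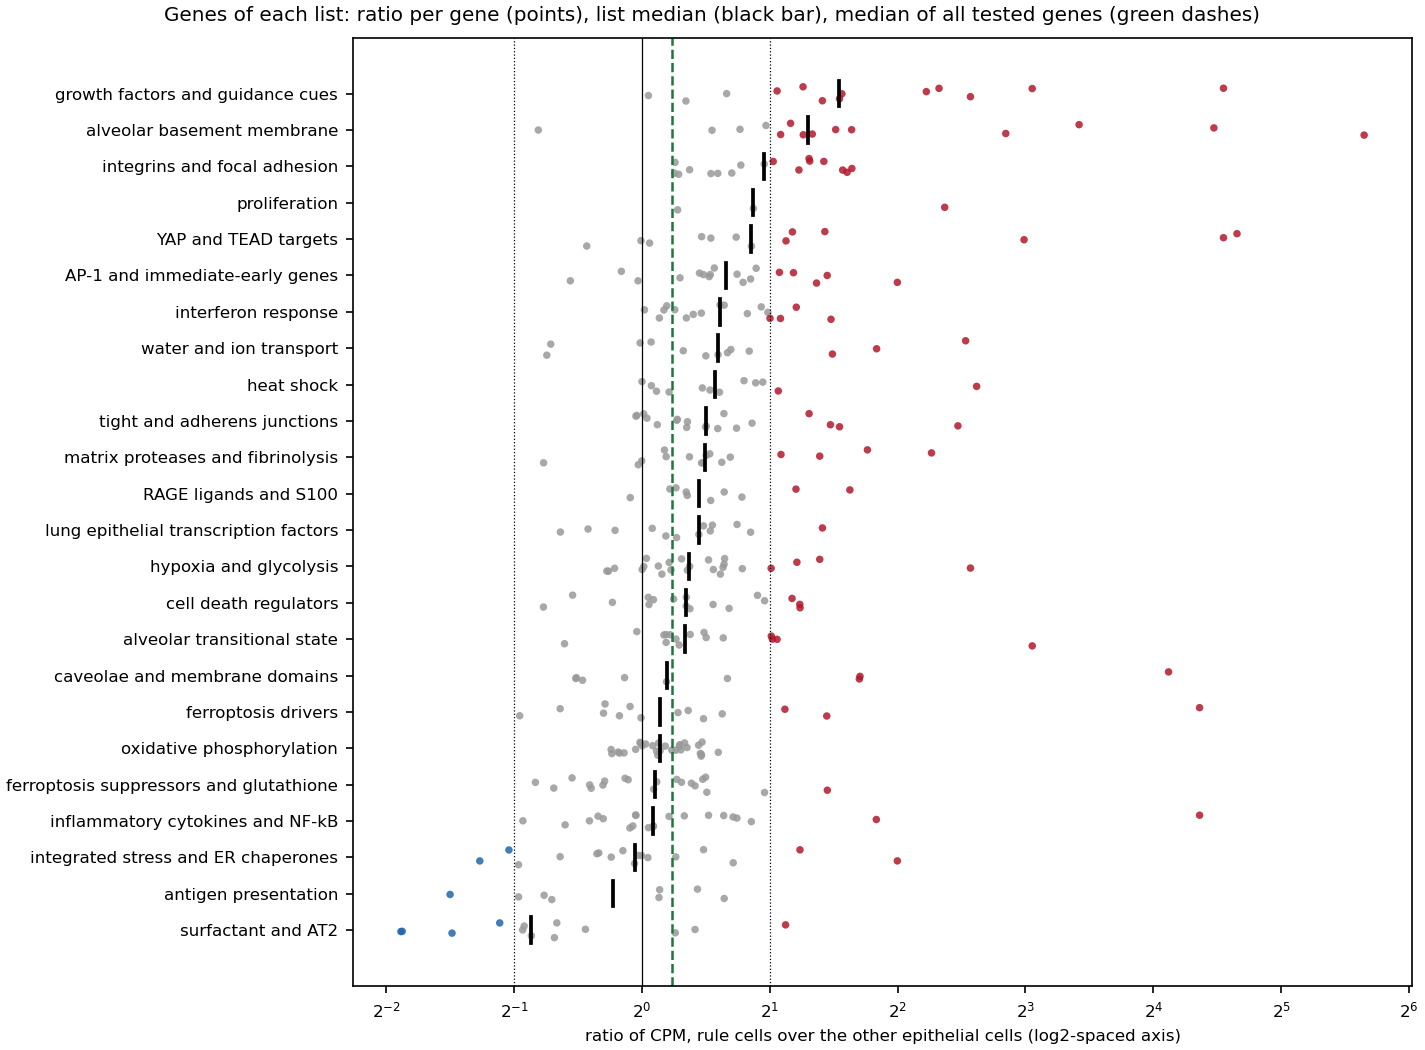
Ratio of CPM in rule cells over the other epithelial cells (log2-spaced axis) for each tested gene of 24 lists. Points are genes, red where the ratio is 2 or more and blue where it is 0.5 or less; black bars are list medians, and the green dashed line is the median of all tested genes, 1.18. The growth factor and basement membrane lists have medians of 2.92 and 2.46, and the surfactant list lies lowest at 0.549.

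Barrier and transport lists had lower medians. Of 19 junction genes 4 were higher and none lower (median 1.41), among them TJP1, zonula occludens 1, at 105 CPM in rule cells against 42.4. CLDN5 and the second of 2 genes under 10 CPM in the other epithelial cells passed the filter only through rule cells. Without these 2, 2 of 17 were higher, against 8.49% of all genes counted so. CLDN5, at 26.2 CPM against 4.73, is the claudin of endothelium and had 969 CPM there and 190.3 CPM in the 20 rule cells with endothelial or stromal markers. It is among the markers that chose both of these sets. Of 13 water and ion transport genes 3 were higher: CLIC5, AQP5 and SLC9A3R2, a PDZ scaffold for ion exchangers, at 213 CPM against 76.0. Among 9 genes of caveolae and membrane domains CAV2, CAVIN2 (159 CPM against 48.8) and EMP2 were higher, and the list's median ratio was 1.14, under that of all genes. Without CAV2, which lay under 10 CPM in the other epithelial cells, 2 of 8 were higher. Of 13 transcription factors of lung epithelium only GATA6 was higher, at 86.1 CPM against 32.4; NKX2-1, which both alveolar lineages need, had 89.9 CPM against 53.6 and did not pass 2-fold.

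Markers of the transitional state between AT2 and AT1 cells were little different. Of 16 genes, 4 were higher and none lower, with a median ratio of 1.26. AREG and HBEGF, another EGF receptor ligand (648 CPM in rule cells against 311), were among them. CDKN1A, a cell-cycle inhibitor, also passed at 341 CPM against 169, but the ciliated class had 566 and the 151 rule cells without other lineages 195. KRT8, the keratin often used to mark this state, had a ratio of 0.973 (0.908 to 1.04). In the 50 rule cells with both rule genes and no other lineage, 2 of 16 were higher and 7 lower (median 0.680). Of all genes there, 41% were higher and 23.2% lower. With the interval 2 of the 16 were higher and 4 lower, where 16.1% and 5.53% of genes were. In the 101 cells without other lineages and with a single rule gene, 4 of 16 were higher and none lower (median 1.36). Over all rule cells 1 of 3 proliferation genes tested was higher, TYMS, at 16.9 CPM against 3.26 from 9 UMIs. TYMS passed the filter only through rule cells, and without it 0 of 2 were higher.

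Stress and death programmes gave mixed counts. Of 17 interferon-response genes 4 were higher and none lower (median 1.53), among them IFIH1, an RNA sensor, at 84.3 CPM in rule cells against 30.2. Of 24 hypoxia and glycolysis genes 4 were higher (median 1.29), with ADM, adrenomedullin, at 88.0 CPM against 33.6 and PFKFB3, a driver of glycolysis, at 129 against 64.1. Of 12 heat shock genes 2 were higher (median 1.48): CRYAB and HSPH1, at 889 CPM against 425, where the ciliated class had 1486. In the 50 rule cells with both rule genes and no other lineage, 9 of 12 were higher and none lower (median 2.30). All 9 were also called with the interval. Of all genes there, 41% were higher by fold and 16.1% with the interval. In the 101 cells without other lineages and with a single rule gene, 2 of 12 were higher (median 1.41). Over all rule cells, 2 of 17 genes of the integrated stress list were higher and 2 lower (median 0.961). Without 1 gene under 10 CPM in the other epithelial cells 1 of 16 was higher. The 2 lower genes were SESN2, sestrin 2, at 14.98 CPM against 36.1, and TRIB3, a pseudokinase induced by amino acid stress, at 109 against 223. Among 21 inflammatory genes only PTGS2 and CXCL10, a chemokine for T cells, were higher, the second at 78.6 CPM against 22.1; CSF3, the neutrophil growth factor, had 359.5 CPM against 685.

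Ferroptosis, an iron-dependent cell death by lipid peroxidation, is the process the series addresses in macrophages, and it had its own lists. Of 14 drivers 3 were higher and none lower (median 1.11): PTGS2, LPCAT3, an enzyme that loads polyunsaturated lipids into membranes, at 52.4 CPM in rule cells against 19.2, and POR, cytochrome P450 reductase, at 56.2 against 25.9. ACSL4, the acyl-CoA synthetase of this pathway, had 403 CPM against 492, and TFRC, the transferrin receptor, 20.6 CPM against 39.9. Of 20 suppressors and glutathione genes 1 was higher, PRDX6, a peroxiredoxin that reduces lipid peroxides, at 378 CPM against 138; the ciliated class had 433. GPX4, which reduces lipid peroxides in membranes, had 119.8 CPM against 148. ACSL4 and GPX4 are named for their place in the pathway and were chosen after their values were seen. Over all rule cells both list medians lay under the 1.18 of all genes. The suppressor list differed between sets of rule cells. In the 50 cells with both rule genes and no other lineage, 4 of 21 were higher and 10 lower (median 0.515). Of all genes there, 41% were higher and 23.2% lower. With the interval 2 of the 21 were higher and 3 lower, where 16.1% and 5.53% of genes were. In the 51 rule cells with ciliated markers 2 of 19 were higher and 1 lower (median 1.41). Over all rule cells 3 of 17 cell death regulators were higher and none lower (median 1.27). Of these regulators 2 of 15 were higher without 2 genes under 10 CPM in the other epithelial cells. None of 29 oxidative phosphorylation genes passed 2-fold in either direction over all rule cells. In the 50 cells with both rule genes and no other lineage, 2 of 29 were higher and 13 lower (median 0.570). With the interval 2 were higher and 3 lower. In the 51 rule cells with ciliated markers 4 of 29 were higher and none lower (median 1.54).

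RAGE ligands and their S100 relatives were higher only in part. Of 10 tested, 2 were higher, S100A8 at 202 CPM in rule cells against 65.5 in the other epithelial cells and S100A12 at 320.2 against 139, both made by neutrophils. In the 12 rule cells with leukocyte markers alone S100A8 and S100A12 stood at 2709 and 4461 CPM. In the 151 cells without other lineages S100A8 and S100A12 stood at 25.4 and 29.7 CPM, below the other epithelial cells. The 12 cells held 99 of the 108 UMIs of S100A8 and 163 of the 171 UMIs of S100A12. Both genes are among the leukocyte markers that chose the 12 cells and kept such cells out of the 151. Their levels in these 2 sets therefore follow in part from the choice. Of 16 matrix protease and fibrinolysis genes 4 were higher, and 3 of 15 without 1 gene under 10 CPM in the other epithelial cells. PLAU, urokinase, had 416 CPM against 122, in 10.7% of rule cells and 11.07% of the other epithelial cells. In the 50 cells with both rule genes and no other lineage PLAU had 19.5 CPM.

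Of the 188 genes lower in rule cells, 94 had their highest level in AT2, 36 in ciliated, 29 in secretory and 29 in remaining epithelial cells. The rule's limits on SFTPC and SCGB1A1 act in the same direction, so this is a description. Of 13 surfactant and AT2 genes other than SFTPC, 4 were lower and 1 higher, with a median ratio of 0.549. The 1 higher gene lay under 10 CPM in the other epithelial cells and passed the filter only through rule cells. Of the other 12 none were higher. SLC34A2, the phosphate carrier of AT2 cells, had 78.6 CPM in rule cells against 288 (0.273, 0.196 to 0.369), LPCAT1, which makes surfactant phospholipid, 16.9 against 62.2, ABCA3, the lamellar body transporter, 54.3 against 117 and NAPSA, a protease that matures surfactant protein B, 269.6 against 755. SFTPA1, SFTPB and SFTPD, which encode surfactant proteins A, B and D, had ratios of 0.524, 0.631 and 0.549 and were not called. In the 50 cells with both rule genes and no other lineage SFTPA1 had 1251 CPM and SLC34A2 19.5 CPM, against 7996 and 288 CPM in the other epithelial cells.

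The 15 lowest ratios were taken among genes with a symbol and at least 100 CPM in the higher set, without SFTPC, SCGB1A1 and PTPRC. They began with KCNE5, a subunit of potassium channels, at 11.2 CPM in rule cells against 153 (0.0736, 0.0270 to 0.160), and AT2 cells had 220.0. HBB, beta globin, had 238 CPM against 1692, with 6026 CPM in the remaining epithelial class. MT1A, a metallothionein, had 54.3 against 226, C5, complement component 5, 39.3 against 132, IYD, iodotyrosine deiodinase, 234 against 626 and NPC2, a lysosomal cholesterol carrier, 1294 against 3366. FABP3, a fatty acid binding protein, SFTA2, a surfactant-associated protein, DNASE2, a lysosomal nuclease, and ENO3, an enolase, had ratios of 0.289, 0.379, 0.391 and 0.410. CRISP3, BPIFA1 and SCGB3A1, secreted proteins of airway cells, had 0.177, 0.213 and 0.385, and SLC34A2 and NAPSA complete the set. Of these 15 genes, 11 had their highest level in AT2 cells. The pool decided part of this: against AT2 cells alone CRISP3, BPIFA1 and SCGB3A1 were higher in rule cells, and against the remaining epithelial cells alone FABP3, NAPSA, SFTA2 and DNASE2 had ratios just above 1, as had SCGB3A1 at a higher value.

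Antigen presentation genes had a median ratio of 0.855. Of 8 tested, 1 was lower and none higher: SLA-DMB, a class II chaperone, at 18.7 CPM in rule cells against 53.0 (0.354, 0.169 to 0.652). CD74, the class II invariant chain, had 771 CPM against 1311 and SLA-DQB1, a class II chain, 403 against 656, with 1559 and 772 CPM in AT2 cells. In the 151 cells without other lineages CD74 had 1021 CPM, and in the 50 of them with both rule genes 254 CPM.

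The same rule found few cells elsewhere. It picked 6 and 7 cells in the IRI CD45+ libraries and 15, 26 and 15 cells in the control libraries, or 0.132% and 0.172% of cells in IRI CD45+ and 0.303%, 0.397% and 0.236% in controls. A comparison over libraries required at least 2 controls with 20 rule cells, and 1 control reached that, so the values stand side by side without a test. AT1 markers summed to 8087 CPM in rule cells of IRI CD45-, to 1352 and 4751 in those of IRI CD45+, and to 1656, 2215 and 1566 in those of the controls. Pan-epithelial markers summed to 10327 CPM in IRI CD45-, 73.1 and 609 in IRI CD45+ and 1251, 2050.0 and 372 in controls. Stromal markers summed to 446 CPM, 0 and 0, and 3765, 5555 and 16598 in the same order of libraries.

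By their markers, the control cells went against the AT1 label. COL4A3 and COL4A4 had 41 and 46 UMIs in rule cells of IRI CD45-, none in those of IRI CD45+, and 2 UMIs each over all 56 rule cells of the controls. COL1A1 had 59.9 CPM in IRI CD45-, and 739, 1684 and 2689 in controls; SFTPC had 18039.8 CPM in IRI CD45-, and 0, 308 and 0 in controls. In the IRI CD45+ libraries the few rule cells rested on RTKN2, at 438.5 and 2315 CPM, and had 6431 and 8772 CPM of leukocyte markers although PTPRC was at 0. For this reason no difference between graft and control is given for these cells.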

How the data were processed

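Single-cell libraries of pig lung were prepared with the DNBelab C Series HT kit, per the labels' protocols. The authors deposited matrices of raw UMI counts per gene and cell, written by PISA per the file headers, and Sscrofa11.1, R 4.2.2 and Seurat 5.5.3 are named in the submitters' processing notes; which aligner and gene models were used is not given in the sources used here. All 6 libraries were analysed in Python 3.11.15 (scipy 1.17.1, numpy 2.4.6, matplotlib 3.10.9, pandas 2.3.3). Barcodes in each library are numbered names, so a name shared between libraries does not show a shared cell. No doublet caller was run, and the IRI libraries list no mitochondrial genes, so no filter on them was possible.

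Cells with under 500 UMIs were left out. The rule for alveolar type 1 cells was applied first; PTPRC-positive cells (leukocytes) and cells with at least 3 endothelial marker UMIs were background sets. Close to the class limits lay 363 AT2 cells at 5 to 6% SFTPC, 150 secretory cells at 1 to 2% SCGB1A1, and 118 ciliated and 128 remaining cells at 3 marker UMIs. "Without other lineages" means under 3 UMIs of ciliated, of leukocyte, and of endothelial and stromal markers together.

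UMIs were summed per set and scaled to CPM, with exact Poisson intervals for levels and exact conditional intervals for ratios. A gene was tested at a mean of 10 CPM over both sets and called past 2-fold. Shares of cells had exact Clopper-Pearson intervals at 95% and were also taken after thinning to 500 UMIs (seed 1). PCR and free RNA are outside these intervals. Genes were named by rule: the rule genes, the AT1 markers, the 15 highest and 15 lowest ratios with at least 100 CPM in the higher set (and, for higher genes, detection in 10% of rule cells), the 10 highest over any class, and up to 4 genes per list. Pan-epithelial, lineage and surfactant markers are given beside them, as are ACSL4 and GPX4. The 15 highest, 15 lowest and 10 highest were taken among genes with a symbol, without AGER, RTKN2, SFTPC, SCGB1A1 and PTPRC. In the IRI CD45- library 15582 of 30873 features were listed by Ensembl identifiers, and 132 features were given a symbol. The members, lists and comparisons were chosen with earlier results of these data known. The procedure was tested on simulated data. Gene positions come from the RefSeq table for Sscrofa11.1. An edgeR comparison of graft and control was planned and not run, because 1 control held 20 rule cells.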

Additional observations from a re-analysis of the deposited data

Results flagged for a closer look

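Signal for the rule genes also lay in barcodes that no comparison used. Of the 764 barcodes under 500 UMIs in the IRI CD45- library, 13 held at least 2 UMIs of AGER and RTKN2, a share of 1.70% (0.909 to 2.89), above the 0.393% that a count of 0 would allow. Leukocytes of the library, at a median of 2246.5 UMIs against 361.5 in these barcodes, passed the same threshold in 2.28% (1.59 to 3.18), so the share does not by itself mark AT1 cells.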

How the results depend on the processing

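Against 1032 genes higher and 188 lower, the rule cells with at least 3 UMIs of AGER and RTKN2 gave 479 lower, those with both genes 2333 higher and 1150 lower, and those with SFTPC under 1% 1794 and 531. Scaling without genes over 1% of UMIs gave 306 lower, means of per-cell CPM 1553 higher and 621 lower, rule cells without other lineages 691 lower, equally weighted classes 627 higher and no filter on low genes 5557 higher and 15085 lower. Of the alternatives chosen after seeing the data, cells of 500 to under 2000 UMIs gave 1971 higher and 1622 lower, AT2 cells alone 1615 higher and the remaining class alone 473 lower. Without the filter more genes enter; for the others the cause was not tested. AT1 markers called higher stayed between 13 and 18 in all 12 alternatives, against 15. These counts include markers that lay under 10 CPM in the other epithelial cells. Thinning to 500 UMIs brought the shares of rule cells with COL4A3, CAV2 and ARHGEF26 to 6.41% each.

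Among 90 named genes, of which 79 were called, 19 values changed sign. The log2 ratio of S100A8 was -1.92 at 3 or more UMIs, -0.48 with both genes, -1.02 with SFTPC under 1%, -1.37 without other lineages and -1.32 at 500 to under 2000 UMIs. That of S100A12 was -1.83, -0.89, -1.46, -2.23 and -0.64 there, and -0.57 against the remaining class. Both genes are among the leukocyte markers, so their values without other lineages follow in part from the choice of cells. Against AT2 cells CRISP3, BPIFA1 and SCGB3A1 had 1.07, 2.76 and 3.56, and against the remaining class FABP3, NAPSA, SFTA2, SCGB3A1 and DNASE2 had 0.095, 0.033, 0.11, 0.64 and 0.13.

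No paired analysis was possible because 1 library holds the rule cells, and leaving out a replicate would leave none. The edgeR comparison with controls and its alternatives were not run. Depth limits the shares: at a median of 1231.5 UMIs per rule cell, a gene without a UMI in a cell is not shown to be absent.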

Other observations

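COL4A3 and COL4A4 were also used to look for cells outside the rule, a choice made after their values were seen. At least 2 UMIs of the pair were found in 24 of 234 rule cells (10.3%, 6.68 to 14.9), in 16 of 1526 remaining epithelial cells (1.05%, 0.600 to 1.70), in 15 of 7143 AT2 cells (0.210%) and in 1 of 1488 leukocytes. None of 640 endothelial cells held 2. The 42 such cells outside the rule, of all classes together, had a median of 1576.5 UMIs. They had 139.6 CPM of AGER and 177 CPM of RTKN2, in 10 and 9 of the cells. CAV2, CLIC5 and VEGFA stood at 139.6, 493 and 279 CPM and ANKRD1, CCN2 and PTGS2 at 344, 1396 and 409.5 CPM. SFTPC, which the rule limits, had 73359 CPM in them.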
